A study of Rattus norvegicus with 8 samples.

Results

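The liver genes described here are the nuclear receptor PPAR alpha (Ppara), its coactivator PGC-1 alpha (Ppargc1a) and 5 genes that respond to PPAR alpha but do not encode enzymes of fatty acid oxidation: Fgf21, Angptl4, Pdk4, Vnn1 and Creb3l3. They were chosen by name, and every probe whose RefSeq accession mapped to one of these rat symbols was taken. The 7 genes were matched by 7 probes, 1 for each gene, out of 30367 probes and 15168 gene symbols on the array. All 7 are accounted for below: 6 passed the filter on dim probes and were tested, and the probe of Ppargc1a was above background on 0 of 8 arrays.

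Total RNA of liver from male rats aged 22 weeks was measured on single-colour Agilent arrays, 1 array for each sample. The tested diet was a high-fat diet fed for 14 weeks, with the disease state given as NAFLD, non-alcoholic fatty liver disease (5 arrays), and the control diet was standard chow over the same 14 weeks (3 arrays). The labels name no strain, no fat content of the diet, no feeding state and no time of day at collection, and they leave unsaid whether the samples were separate animals. The p-values therefore cover only the spread among these 8 samples, which may be technical in part. RNA was taken from whole liver tissue, in which fewer cells of a type and less RNA per cell cannot be told apart.

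PPAR alpha is a receptor for fatty acids that works on DNA as a partner of the retinoid X receptor, and in liver it switches on genes of fat use during fasting and when fatty acids reach the hepatocyte. PGC-1 alpha is a coactivator that is induced by fasting and that helps PPAR alpha and other receptors start transcription. The 5 responding genes carry other arms of the same programme: FGF21 is a hormone that liver releases into blood, ANGPTL4 is a secreted inhibitor of lipoprotein lipase, PDK4 is a kinase that shuts the pyruvate dehydrogenase complex and so spares glucose, VNN1 is a pantetheinase that returns pantothenate, the precursor of coenzyme A, and CREB3L3 (CREBH) is a transcription factor anchored in the endoplasmic reticulum that acts together with PPAR alpha on Fgf21 in mouse liver.

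Promoter sequences were available for 6 of the 7 genes and not for Vnn1. The 250 bases before the annotated start are shown for the pair of genes whose diets did not overlap, Fgf21 and Angptl4, and for Creb3l3, as RefSeq gives them on the GRCr8 assembly, each 5′ to 3′ on the strand of its gene. Fgf21 lies at chr1:105221377-105221626 (minus strand), Angptl4 at chr7:15258682-15258931 (minus strand) and Creb3l3 at chr7:9273070-9273319 (plus strand). Capitals mark every match to the motifs searched on both strands.
Fgf21: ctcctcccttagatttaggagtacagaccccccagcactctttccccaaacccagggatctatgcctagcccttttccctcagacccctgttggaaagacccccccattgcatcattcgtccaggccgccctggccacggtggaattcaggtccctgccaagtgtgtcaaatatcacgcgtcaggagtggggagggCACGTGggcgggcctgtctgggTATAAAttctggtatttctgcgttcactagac
Angptl4: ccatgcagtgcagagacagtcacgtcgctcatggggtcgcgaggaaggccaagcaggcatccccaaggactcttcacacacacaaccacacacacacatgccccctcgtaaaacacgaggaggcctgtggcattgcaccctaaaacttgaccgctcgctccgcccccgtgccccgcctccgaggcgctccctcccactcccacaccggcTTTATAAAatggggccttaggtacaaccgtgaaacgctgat
Creb3l3: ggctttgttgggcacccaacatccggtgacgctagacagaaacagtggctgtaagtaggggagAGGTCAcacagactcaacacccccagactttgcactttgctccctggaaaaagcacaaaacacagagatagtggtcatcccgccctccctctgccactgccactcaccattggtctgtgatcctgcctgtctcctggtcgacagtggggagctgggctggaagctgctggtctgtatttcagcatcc

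The motif of 2 copies of AGGTCA in the same direction with 1 base between them, the ideal form of the repeat that PPAR alpha and the retinoid X receptor bind together, was found in 0 of the 6 promoters and in 0.0508% of 33469 promoters in the table. A single AGGTCA, which is contained in it, was found in the promoter of Creb3l3 and in 14.1% of all promoters. The E-box CACGTG, which clock factors and other factors bind, was found in the Fgf21 promoter, its first base 54 bases before the start, and in 5.59% of all promoters. The TATA box TATAAA was found in Fgf21, 32 bases before the start, in Angptl4, where it was read on both strands of 1 stretch, and in 12.9% of all promoters. The cAMP response element TGACGTCA was found in Ppargc1a only among the 6, and in 1.59% of all promoters. These matches describe the letters in the window and say nothing of binding.

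All values below are on the log2 scale, with the signal of a probe set against the 75th percentile of signals on its array, so 0 is the level of that percentile and a difference of 1 is a doubling. The diets were compared with limma across 22871 features (high-fat minus chow), and p was adjusted over all of them by Benjamini and Hochberg's method, with a threshold of 0.05. The arrays were scanned in 3 scans: high-fat arrays 2, 3 and 5 together, all 3 chow arrays together on the same day, and high-fat arrays 1 and 4 on another day. No scan held both diets, so scan and diet cannot be told apart. High-fat arrays were also brighter, with 79.1% to 92.8% of probes above background against 66.9% to 71.8% on chow arrays. When features were sorted by mean signal into 10 bins of near-equal size, the median log2 difference between the diets was 0.51 in the bin with the least signal and -0.24 in the brightest bin. The median of its own bin is therefore given beside each of the 6 tested genes. All 10 hepatocyte markers, albumin and transthyretin among them, were above background on all 8 arrays, and 0 of the 10 were called by limma in either direction (4 lower and 0 higher at an unadjusted p under 0.05). Their median log2 difference was -0.40 (-0.17 after the median of each gene's brightness bin was subtracted). The list mean of centred values was -0.27 to 0.05 on high-fat arrays and -0.07 to 0.40 on chow arrays. Among 10 lists of markers of other cell types, 2 of 5 tested muscle markers were called higher, Ckm and Acta1, both well above background only on arrays of the high-fat diet (5 of 8), and 1 of 3 intestinal markers was called lower, Fabp2, at -1.04 ± 0.17 (SE; limma adjusted p = 0.0132). In the other 8 lists 0 markers were called by limma. These markers were named after their values were seen. The muscle list mean of centred values was -0.16 to 0.66 on high-fat arrays and -0.52 to -0.32 on chow arrays. The filter kept Ckm and Acta1 through the high-fat arrays alone, so their calls are no support for a higher level on that diet. The other tested muscle markers, Tnnt2, Actc1 and Mb, were above background on all 8 arrays. Their log2 differences were 0.05, 0.05 and -0.18. The part of these shifts in the values below was not tested.

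Of the 6 tested genes, 0 were called higher and 0 lower by limma on high-fat diet, where 3.07% of all features were called higher and 0.49% lower (3.56% in either direction). At an unadjusted p under 0.05 the count was 1, Fgf21, which was lower, where 9.37% of all features were lower at that level and 20.2% reached it in either direction. The log2 difference was below 0 in 5 of the 6, the exception being Vnn1, while 50.5% of all features lay below 0. That share pools all brightness bins. In the brightest bin, which holds Angptl4 and Creb3l3, the upper quartile of the log2 difference was itself below 0, at -0.05. The median was -0.43 over the 6 genes (-0.33 after the median of each gene's brightness bin was subtracted) and -0.01 over all features. All 10 hepatocyte markers also lay below 0, with a median of -0.40 (-0.17 after the same subtraction). The diets did not overlap for Fgf21 and Angptl4, both lower on every high-fat array than on every chow array, and 9.17% of all features showed that pattern. In the other direction 7.94% were higher without overlap, or 17.1% in all. The same shares apply to the list genes described below as not overlapping between diets.

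**Figure D1:**
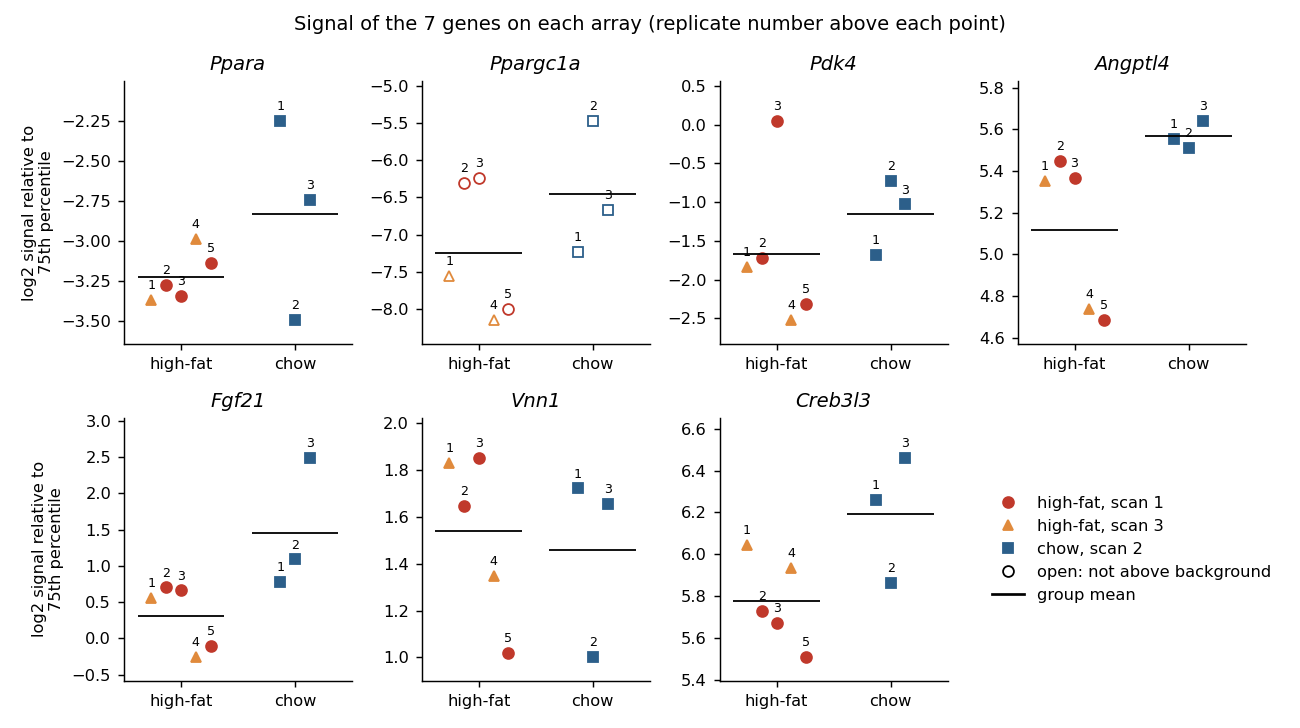
Log2 signal of the 7 genes, with each array's 75th percentile at 0: 1 point for each array, numbered by replicate, with high-fat arrays (n = 5) left of chow arrays (n = 3), colour and shape for the scan, and a line at each group mean. Fgf21 and Angptl4 are separated by diet, Pdk4 has 1 high-fat array above all chow arrays, and the open points of Ppargc1a were not above background.

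Ppara, the receptor itself, was close to the same level on all high-fat arrays and spread widely on chow. Its values were -3.37, -3.28, -3.34, -2.99 and -3.14 on high-fat arrays 1 to 5, against -2.25, -3.50 and -2.74 on chow arrays 1 to 3. The lowest of the 8 arrays was chow 2 and the highest was chow 1, so the diets overlapped. The high-fat mean was -3.22 ± 0.16 (SD, n = 5), against a chow mean of -2.83 ± 0.63 (SD, n = 3). The log2 difference was -0.39 ± 0.26 (SE; 95% interval -0.99 to 0.21; limma adjusted p = 0.449), in a brightness bin with a median of 0.05. Without chow 1 the difference was -0.10, and without chow 2 it was -0.73 (limma adjusted p = 0.893 and 0.113). A change in Ppara of nearly 1 log2 unit downwards lies within the interval, so equal levels on both diets were not shown.

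Among 22 listed partners and coregulators of PPAR alpha, 15 were tested, of which 0 were called in either direction by limma (1 lower and 0 higher at an unadjusted p under 0.05), with a median of 0.05. Rxra, the receptor's partner on DNA, had a high-fat mean of -2.13 ± 0.20 (SD, n = 5) against a chow mean of -2.36 ± 0.07 (SD, n = 3), a log2 difference of 0.22 ± 0.16 (SE; limma adjusted p = 0.473) that turned to -0.021 with a normexp background. Nr0b2, the small heterodimer partner that represses liver nuclear receptors, had -0.93 ± 0.43 (SE; limma adjusted p = 0.264), and Ppargc1b, a relative of Ppargc1a, had 0.58 ± 0.26 (SE; limma adjusted p = 0.255). That of Ppargc1b turned to -0.44 with a normexp background. It passed the threshold as higher with array weights (0.84; limma adjusted p = 0.0285) and over arrays scanned on the day of the chow arrays (0.85; limma adjusted p = 0.0436). The Ppargc1b probe was well above background only on arrays of the high-fat diet (5 of 8), in a brightness bin with a median of 0.16. The filter kept it through those arrays alone, so these calls are no support for a higher level on that diet.

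Ppargc1a could not be measured in these livers at the signal reached. Its processed signal was 3.86, 11.5, 13.8, 2.57 and 3.42 intensity units on high-fat arrays 1 to 5, against 1.99, 12.6 and 2.73 on chow arrays 1 to 3. The raw median signal of the spot was 60 to 67 units on high-fat arrays and 45 to 99 on chow arrays, over a local background of 25 to 30 and 19 to 25.5 units. No fold is given, since neither diet was above background. Of 13 listed partners and targets of PGC-1 alpha, 12 were tested and 0 were called by limma in either direction (0 at an unadjusted p under 0.05), with a median of -0.03. Alas1, the first enzyme of haem synthesis, had -0.25 ± 0.19 (SE; limma adjusted p = 0.507), and Nrf1, a transcription factor for mitochondrial genes, had -0.28 ± 0.18 (SE; limma adjusted p = 0.437). Alas1 sits in the brightest bin, whose median was -0.24.

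Fgf21 had the most negative log2 difference of the 6 tested genes, and the size of the difference rested on 1 chow array. Its values were 0.56, 0.70, 0.66, -0.26 and -0.11 on high-fat arrays 1 to 5, against 0.77, 1.09 and 2.49 on chow arrays 1 to 3. The nearest values were high-fat array 2 and chow 1, which lay close together, and chow 3 stood well above the other chow arrays. The high-fat mean was 0.31 ± 0.46 (SD, n = 5), against a chow mean of 1.45 ± 0.92 (SD, n = 3). The high-fat mean of Fgf21 was thus 2.21-fold lower, a log2 difference of -1.14 ± 0.41 (SE; 95% interval -2.08 to -0.20; limma adjusted p = 0.173), in a brightness bin with a median of -0.08. A two-sided exact permutation test over all 56 splits of the arrays into 5 and 3 gave p = 0.0179, the smallest these splits allow, before any adjustment. Without chow 3 the log2 difference was -0.62 (limma adjusted p = 0.441). High-fat arrays of the scan with 3 arrays lay 1.03 below the chow mean on the log2 scale and those of the other scan 1.30 below it.

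The Fgf21 probe was printed 10 times on each array. The SD between these spots was 0.0488 to 0.0842 on the log2 scale and the SD between arrays was 0.46 for the high-fat diet and 0.92 for chow. Spots of 1 array share their labelling, hybridization and scan. The same probe read 513 and 1568 intensity units on chow 1 and chow 3, whose 75th percentiles were 300.1 and 278 units.

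Of 12 listed receptors and regulators of FGF21, 9 were tested and 0 were called by limma in either direction (2 lower and 0 higher at an unadjusted p under 0.05), with a median of -0.20. Fgfr4, the FGF receptor found on hepatocytes, was lower on every high-fat array (-0.97 to -0.50) than on every chow array (-0.23 to -0.01), at -0.64 ± 0.15 (SE; limma adjusted p = 0.0583), short of the threshold. It passed as lower in 5 of the 21 alternatives (limma adjusted p = 0.00784 to 0.0383), among them quantile normalization and the deposited value table. Ddit3, a stress-induced transcription factor, had -0.67 ± 0.22 (SE; limma adjusted p = 0.149), and Mlxipl, the carbohydrate sensor ChREBP that acts on Fgf21, had -0.32 ± 0.19 (SE; limma adjusted p = 0.387). Klb, which encodes the coreceptor beta-klotho, was matched by no probe and is named only.

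Angptl4 was lower on each high-fat array than on any chow array, by a small amount. Its values were 5.35, 5.45, 5.37, 4.74 and 4.68 on high-fat arrays 1 to 5, against 5.55, 5.51 and 5.64 on chow arrays 1 to 3. High-fat arrays 1 to 3 lay just under the chow arrays, and high-fat arrays 4 and 5 lay further below. The high-fat mean was 5.12 ± 0.37 (SD, n = 5), against a chow mean of 5.57 ± 0.07 (SD, n = 3). The log2 difference was -0.45 ± 0.22 (SE; 95% interval -0.95 to 0.06; limma adjusted p = 0.298) and the two-sided exact permutation p was 0.107. Angptl4 sits in the brightest bin, whose median was -0.24, and its difference relative to that median is correspondingly smaller. After quantile normalization the log2 difference was -0.24 (limma adjusted p = 0.613).

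Of 12 listed genes of lipoprotein lipase control, 9 were tested and 0 were called by limma in either direction (1 lower and 0 higher at an unadjusted p under 0.05), with a median of -0.14. Lipc, hepatic lipase, was lower on every high-fat array (3.45 to 3.59) than on every chow array (3.83 to 4.05), at -0.39 ± 0.13 (SE; limma adjusted p = 0.134), and was 0.0032 with normexp and quantile normalization combined. Lipc sits in the brightest bin, whose median was -0.24. Lpl, lipoprotein lipase itself, had -0.21 ± 0.22 (SE; limma adjusted p = 0.663), and was named after its values were seen.

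Pdk4 varied more between high-fat arrays than any other tested gene of the 6. Its values were -1.84, -1.72, 0.05, -2.52 and -2.31 on high-fat arrays 1 to 5, against -1.68, -0.73 and -1.03 on chow arrays 1 to 3. High-fat array 3 was above all 3 chow arrays and the other 4 high-fat arrays were below all of them, so a single array made the diets overlap. The high-fat mean was -1.67 ± 1.02 (SD, n = 5), against a chow mean of -1.15 ± 0.49 (SD, n = 3). The log2 difference was -0.52 ± 0.55 (SE; 95% interval -1.77 to 0.73; limma adjusted p = 0.657), in a brightness bin with a median of 0.02, and the two-sided exact permutation p was 0.411. Without high-fat array 3 it was -0.95 (limma adjusted p = 0.152), and without high-fat array 4 it was -0.31 (limma adjusted p = 0.797). The high-fat arrays of the scan that held array 3 averaged 0.18 below chow on the log2 scale, and those of the other scan 1.04 below it.

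Of 13 listed genes of the pyruvate dehydrogenase complex and its regulators, 11 were tested and 0 were called by limma in either direction (1 lower and 0 higher at an unadjusted p under 0.05), with a median of 0.01. Pdk2, another kinase of the complex in liver, was lower on every high-fat array (3.25 to 3.75) than on every chow array (3.93 to 4.45), at -0.68 ± 0.19 (SE; limma adjusted p = 0.0985). Pdk2 sits in the brightest bin, whose median was -0.24. The phosphatase Pdp1, which reopens the complex, had 0.49 ± 0.26 (SE; limma adjusted p = 0.335).

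Vnn1 was the 1 tested gene of the 6 with a mean above chow, by less than its error. Its values were 1.83, 1.65, 1.85, 1.35 and 1.02 on high-fat arrays 1 to 5, against 1.72, 1.00 and 1.65 on chow arrays 1 to 3. Chow 2 was the lowest of the 8 arrays and high-fat array 3 the highest, and the diets overlapped over nearly the whole range. The high-fat mean was 1.54 ± 0.35 (SD, n = 5), against a chow mean of 1.46 ± 0.40 (SD, n = 3). The log2 difference was 0.08 ± 0.25 (SE; 95% interval -0.50 to 0.66; limma adjusted p = 0.901), in a brightness bin with a median of -0.14, and the two-sided exact permutation p was 0.732. Its direction was not settled, since it was -0.15 without chow 2 (limma adjusted p = 0.82) and 0.0026 without high-fat array 3 (limma adjusted p = 0.996). The Vnn1 probe was also printed 10 times, with an SD between spots of 0.0469 to 0.116.

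Of 12 listed genes of pantothenate use and coenzyme A synthesis, 11 were tested and 0 were called by limma in either direction (1 lower and 0 higher at an unadjusted p under 0.05), with a median of -0.06. Vnn3, the other vanin of the list, was at 0.96 to 1.26 on high-fat arrays and 1.02 to 1.35 on chow arrays, with a log2 difference of -0.01 ± 0.15 (SE; limma adjusted p = 0.978); it was named after its values were seen. Pank4, a relative of the pantothenate kinases, was lower on every high-fat array (-2.33 to -2.21) than on every chow array (-1.97 to -1.89), at -0.33 ± 0.12 (SE; limma adjusted p = 0.171).

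Creb3l3 had a lower mean on high-fat diet, with chow 2 inside the range of the high-fat arrays. Its values were 6.04, 5.73, 5.67, 5.94 and 5.51 on high-fat arrays 1 to 5, against 6.26, 5.86 and 6.46 on chow arrays 1 to 3. Chow 2 lay below high-fat arrays 1 and 4, and chow 1 and chow 3 lay above all 5 high-fat arrays. The high-fat mean was 5.78 ± 0.21 (SD, n = 5), against a chow mean of 6.19 ± 0.31 (SD, n = 3). The log2 difference was -0.42 ± 0.19 (SE; 95% interval -0.85 to 0.02; limma adjusted p = 0.267), in the brightest bin, whose median was -0.24, and the two-sided exact permutation p was 0.0714. With array weights it was -0.53 and passed (limma adjusted p = 0.0434), and with normexp and quantile normalization combined it was 0.10 (limma adjusted p = 0.489).

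Of 14 listed family members, processing enzymes and targets of CREB3L3, 13 were tested and 0 were called by limma in either direction (3 lower and 0 higher at an unadjusted p under 0.05), with 11 below 0 and a median of -0.37 (-0.15 after the median of each gene's brightness bin was subtracted). Atf6, a related sensor of the endoplasmic reticulum, was lower on every high-fat array (-0.64 to -0.32) than on every chow array (-0.09 to 0.38), at -0.60 ± 0.16 (SE; limma adjusted p = 0.0812). Apoa4, an apolipoprotein gene that CREB3L3 drives in mouse liver, was at 6.25 to 6.39 on high-fat arrays and 6.44 to 7.22 on chow arrays, with -0.57 ± 0.19 (SE; limma adjusted p = 0.147). Apoa4 sits in the brightest bin, whose median was -0.24.

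**Figure D2:**
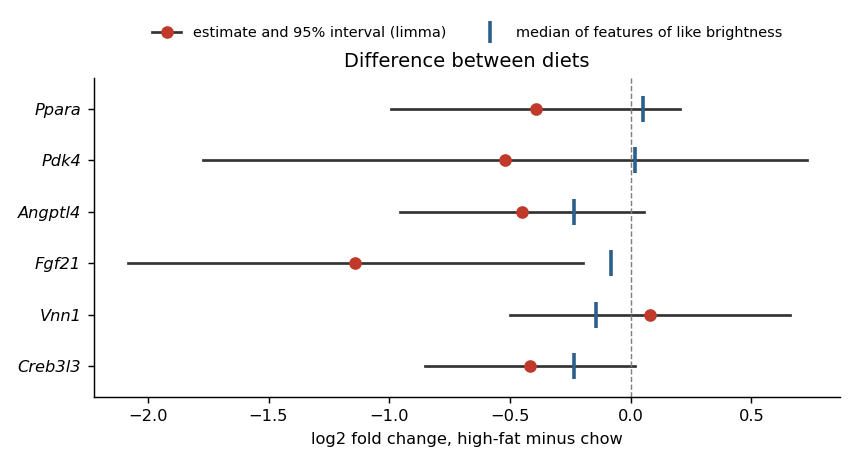
Log2 difference, high-fat diet minus chow, for the 6 tested genes, with 95% intervals from limma and the median of the brightness bin of each gene. The interval of Fgf21 alone lies below 0, and the estimate of Vnn1 alone lies above 0.

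The oxidation targets of PPAR alpha, listed beside these genes, lay mostly below chow. All 29 listed were tested, 1 was called higher and 0 lower by limma, where 3.07% of all features were called higher and 0.49% lower. At an unadjusted p under 0.05, 16 were lower and 1 higher, where 9.37% of all features were lower and 10.8% higher. Of the 29, 24 lay below 0, where 50.5% of all features did. The median was -0.45 (-0.22 after the median of each gene's brightness bin was subtracted). Cpt1a, which lets fatty acids into mitochondria, had -0.28 ± 0.21 (SE; limma adjusted p = 0.499). Cyp4a1, a fatty acid hydroxylase and a classic target in rat liver, had a high-fat mean of 5.57 ± 0.36 (SD, n = 5) against a chow mean of 6.61 ± 0.36 (SD, n = 3), a log2 difference of -1.04 ± 0.25 (SE; limma adjusted p = 0.0622). The 1 gene called higher was Cyp4a8, another hydroxylase, at 1.47 ± 0.24 (SE; limma adjusted p = 0.0187); it had a value on 4 of the 5 high-fat arrays, and with probes kept only if above background on all 8 arrays another probe was taken and the log2 difference was 0.09. With all its probes averaged it was 0.42 (limma adjusted p = 0.668). Slide was taken from the scan, since the labels do not say which arrays shared a slide. Cyp4a8 also missed the threshold with slide as a random block (limma adjusted p = 0.153) and with the replicate number as a block (limma adjusted p = 0.0964). It further missed the threshold without high-fat array 2 and without each chow array in turn (limma adjusted p = 0.0503 to 0.0804).

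Of 24 further PPAR alpha targets outside oxidation, 22 were tested, 1 was called higher and 0 lower by limma (4 higher and 1 lower at an unadjusted p under 0.05), with a median of -0.12. Plin2, the coat protein of lipid droplets, was at 5.16, 4.96, 4.72, 4.47 and 4.45 on high-fat arrays 1 to 5, against 5.36, 4.97 and 5.28 on chow arrays 1 to 3, a log2 difference of -0.45 ± 0.21 (SE; limma adjusted p = 0.268). Plin2 sits in the brightest bin, whose median was -0.24. The gene called higher was Txnip, an inhibitor of thioredoxin that carbohydrate also induces. It was at 1.49, 0.86, 1.06, 1.67 and 0.64 on high-fat arrays 1 to 5, against -0.66, -0.42 and -0.28 on chow arrays 1 to 3, and the diets did not overlap. It was 3.02-fold higher, a log2 difference of 1.60 ± 0.25 (SE; limma adjusted p = 0.0132), and missed the threshold with slide as a random block (limma adjusted p = 0.113), with the replicate number as a block (0.081), without chow 1 (0.0641) and without chow 2 (0.0523).

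**Figure D3:**
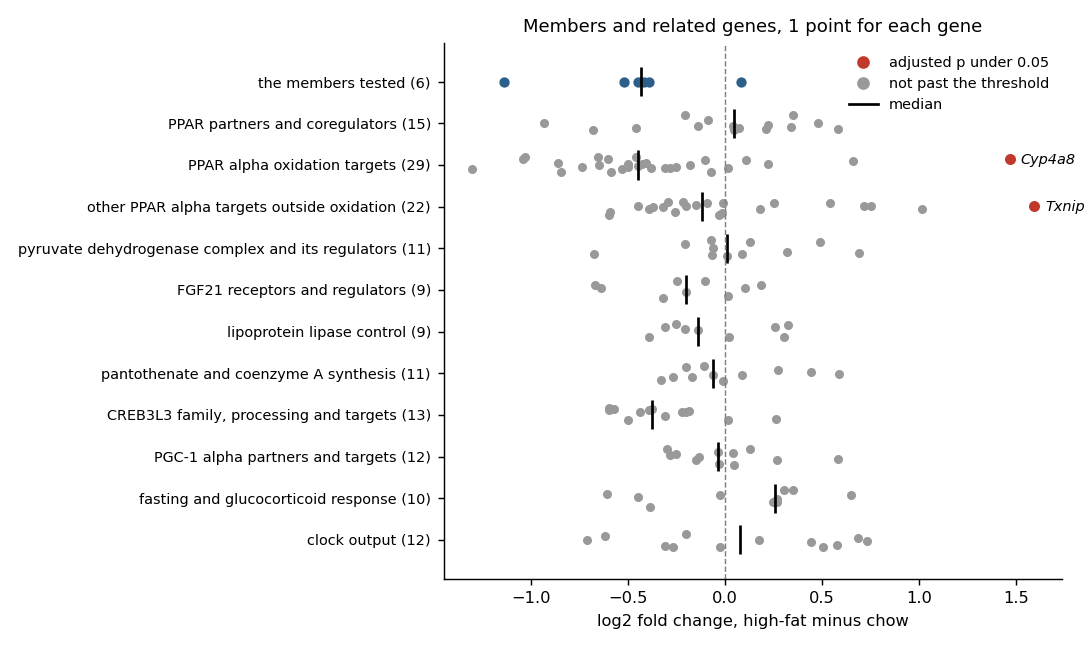
Log2 difference, high-fat diet minus chow, 1 point for each tested gene, with the 6 tested genes of the set in the top row, the 11 lists below it, and a bar at each median. The oxidation targets centre on -0.45 and the 6 tested genes on -0.43, and Cyp4a8 and Txnip are the points past the threshold.

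High-fat arrays 4 and 5 were the lowest high-fat arrays for Pdk4, Angptl4, Fgf21 and Vnn1. The same 2 arrays were not the lowest for Ppara, where they were the highest high-fat arrays, nor both for Creb3l3, where array 5 was the lowest and array 4 the next after the highest. Array 4 belonged to the scan of 2 high-fat arrays and array 5 to the scan of 3. Averaged over the 6 tested genes after each was centred, the arrays stood at -0.06, -0.07, 0.22, -0.44 and -0.54 on high-fat arrays 1 to 5, against 0.24, 0.05 and 0.59 on chow arrays 1 to 3.

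Some genes of the circadian clock set high-fat arrays 4 and 5 apart from the other high-fat arrays, and others did not. Bmal1, a positive arm of the clock, was at 1.68, 1.37, 1.68, 0.73 and 0.50 on high-fat arrays 1 to 5, against 1.53, 2.03 and 1.87 on chow arrays 1 to 3. Per2, of the negative arm, was at 0.43, 0.11, -1.15, 1.5 and 0.98 on high-fat arrays 1 to 5, against 0.14, -0.33 and -0.88 on chow arrays 1 to 3. Tef, a clock output factor, was at 0.48, 0.29, -0.18, 1.1 and 0.84 on high-fat arrays 1 to 5, against 0.15, -0.18 and -0.19 on chow arrays 1 to 3. Arrays 4 and 5 were thus low in Bmal1 and high in Per2 and Tef among the high-fat arrays, and array 3 was at the other end or level with it. Other clock genes ran differently. Per1 was at -3.74, -2.87, -2.68, -3.44 and -2.74 on high-fat arrays 1 to 5, against -2.89, -3.09 and -3.22 on chow arrays 1 to 3. Per3 was at -1.68, -0.79, -0.72, -1.67 and -0.82 on high-fat arrays 1 to 5, against -1.12, -1.49 and -1.32 on chow arrays 1 to 3. Clock was at -5.05, -3.90, -3.54, -5.34 and -4.19 on high-fat arrays 1 to 5, against -4.45, -4.15 and -3.81 on chow arrays 1 to 3. These 3 were lowest on high-fat arrays 1 and 4, the arrays of the smaller scan. All 6 genes named here by array were picked after their values were seen. Of 14 listed clock genes 12 were tested and 0 were called between the diets by limma (1 lower and 1 higher at an unadjusted p under 0.05), with a median of 0.08, and Npas2, a partner of Bmal1, had the smallest p of the list (-0.71 ± 0.19 SE; limma adjusted p = 0.0881). The labels give no time of collection, and the part of the clock genes in the values of Pdk4, Angptl4, Fgf21 and Vnn1 was not tested.

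**Figure D4:**
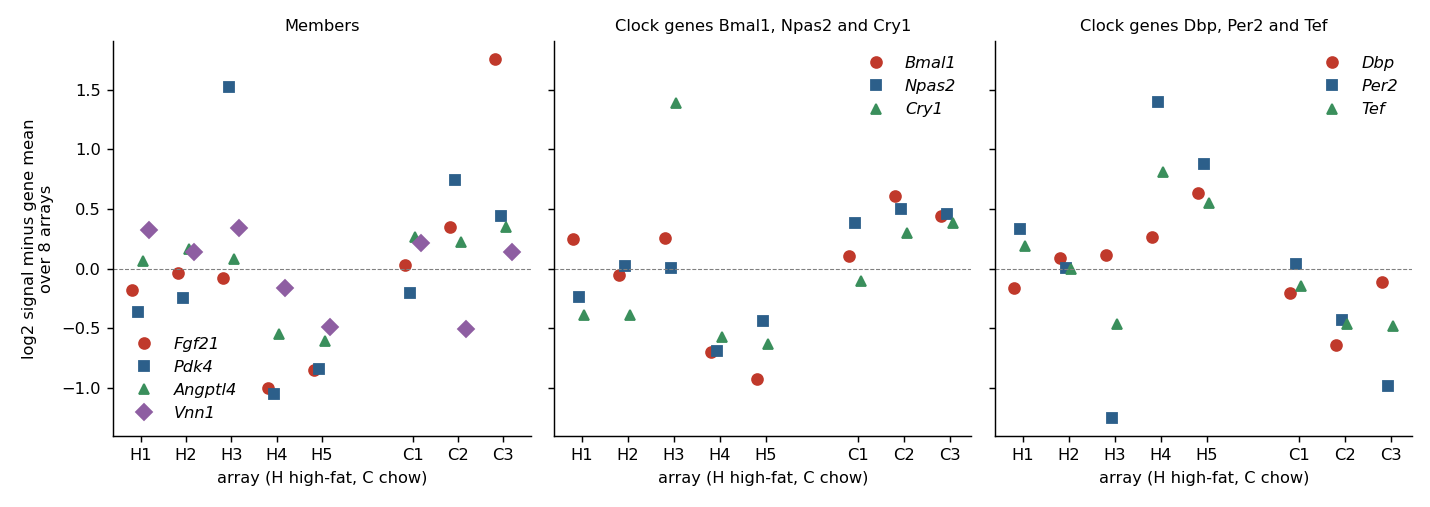
Log2 signal by array, each gene minus its mean over the 8 arrays, with high-fat arrays (H1 to H5) left of chow arrays (C1 to C3). The left panel shows Fgf21, Pdk4, Angptl4 and Vnn1, low on H4 and H5. The other panels show 6 clock genes, picked after their values were seen. Among the high-fat arrays, Bmal1 is low and Per2 and Tef are high on H4 and H5. Clock genes that ran differently, Per1, Per3 and Clock among them, are not shown.

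Of 11 listed genes of the response to fasting and glucocorticoids, which also reach Pdk4, Angptl4 and Fgf21, 10 were tested and 0 were called by limma in either direction (0 lower and 1 higher at an unadjusted p under 0.05), with a median of 0.26. Sgk1, a kinase induced by glucocorticoids, was at 2.01 to 2.54 on high-fat arrays and 1.36 to 1.93 on chow arrays, a log2 difference of 0.65 ± 0.19 (SE; limma adjusted p = 0.111). Pck1, the gluconeogenic enzyme, had 0.27 ± 0.21 (SE; limma adjusted p = 0.521), and was named after its values were seen.

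For each tested gene the features with the most similar profile were found among 10712 candidates, as the mean absolute difference of centred log2 values over the 8 arrays. For Pdk4 they were Nfil3 at 0.178, Cry1 at 0.198 and Slc46a3 at 0.26, where Pdk4 itself deviated by 0.677 on average. Nfil3 and Cry1, a repressor of clock output and a repressor of the clock, were at 0.80 and 0.87 on high-fat array 3 and between -1.25 and -0.84 on the other 4 high-fat arrays. For Fgf21 they were the PPAR alpha targets Cyp4a1 at 0.274 and Ech1 at 0.279, and then the mitochondrial carrier Slc25a34 at 0.28, against an own deviation of 0.535. For Angptl4 they were Parp16 at 0.0824, Tjp1 at 0.0856 and Gpr19 at 0.0939 (own deviation 0.288). For Ppara they were Cyp2c13 at 0.0974, Kif12 at 0.101 and Rup2 at 0.107 (own deviation 0.312). For Vnn1 they were Lmnb1 at 0.112, C5h1orf50 at 0.122 and Gpd2 at 0.131 (own deviation 0.29), and for Creb3l3 they were Sppl2b at 0.0416, Hint2 at 0.0471 and Decr1 at 0.0523 (own deviation 0.242). These distances describe 8 arrays that share scans and brightness and are given with no test.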

How the data were processed

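Total RNA from 8 rat liver samples (5 high-fat, 3 chow) was read on single-colour arrays with Agilent Feature Extraction 11.0.1.1, per the submitters' processing notes. Per the file headers, the deposited scanner files give each spot's processed intensity, already corrected for background and for spatial trends on that array but not scaled to the other arrays. They also give raw median signal and local background as intensity, and marks (0 or 1) for spots above background, saturated or outlying. The authors' deposited value table holds log2 values with near-equal medians (6.42 in each column); how it was made is not given in the sources used here, and it served as an alternative. Array by array, its log2 values and the scanner values had Pearson correlations of 0.995 to 0.999.

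Here outlier spots (331 to 550 an array) were dropped, log2 processed signals of a probe's spots were averaged, and arrays were scaled by subtracting their 75th percentile. No spot was saturated (0 on each array), and 0 pairs of arrays were identical. The filter kept probes for which, on 3 or more of the 8 arrays, a share of 0.5 or more of the spots was well above background. Accessions were matched to RefSeq genes of GRCr8 (18005 probes, 15168 symbols). The array design uses another assembly, so no probe positions are given. The brightest kept probe stood for a gene. The 22871 features were tested with limma 3.58.1 (lmFit, eBayes, two-sided, R 4.3.3), and the fit was tested on simulated data. Single values were also tested with an exact permutation test over 56 splits. Replicate numbers came from the titles. Depth here is signal over background, and the number of arrays limits the precision.

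The 7 genes, the 11 lists of other genes (168 genes) and the cell type markers were chosen with earlier results of these data known. The genes named from each list were the 3 with the smallest unadjusted p, plus Rxra, Cpt1a, Cyp4a1, Plin2, Klb and a few others whatever their p; some genes chosen by this rule are not reported here. Genes named otherwise are marked as such. For likeness, the 3 closest features with a symbol were taken. The 21 alternatives changed the background correction, normalization, filter, probe choice, scan, slide, array weights, replicate block and arrays left out. Slide in these alternatives was taken from the scan, since the labels name no slide. The files have no mean signal, so the normexp background (offset 50) used the median signal.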

Additional observations from a re-analysis of the deposited data

Results flagged for a closer look

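Among the 52 groups of 5 high-fat arrays examined, 3 had 1 array far from the other 4, and chance gives about 1 in 20 such groups; none of the 7 genes was among them. Alas1, of haem synthesis, was at 5.126 on high-fat array 3, against 5.71 to 5.81 on the other high-fat arrays. Sgk1, a glucocorticoid-induced kinase, was at 2.011 on high-fat array 3, against 2.43 to 2.54 on the others. Pank3, a pantothenate kinase, was at -4.564 on high-fat array 2, against -4.22 to -4.11 on the others. Nfil3 and Cry1, described above, were not among the groups flagged. Their values on high-fat array 3 (0.80 and 0.87) also stood far from those on the other 4 (-1.25 to -0.84).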

How the results depend on the processing

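Across the 21 alternatives, the number of the 6 tested genes called higher was 0 in each, and the number called lower was 0 in each except with array weights, where it was 1 (Creb3l3, -0.53); with single arrays left out both stayed at 0. The direction of Vnn1 turned with array weights (-0.049), and its log2 difference ran from -0.15 (without chow replicate 2) to 0.21 (without chow replicate 1) with single arrays left out, and from -0.15 to 0.32 over all alternatives. That of Creb3l3 turned with normexp and quantile normalization combined (0.10). With a normexp background, where the median over all features became -0.29, the log2 differences of other genes turned to -0.44 for Ppargc1b, -0.021 for Rxra, -0.53 for Ucp3 (otherwise 1.02), -0.47 for Pdk3 (0.69), -0.35 for Gpihbp1 (0.26), -0.53 for Pank3 (0.59) and -0.21 for Nr1d2 (0.68). With normexp and quantile normalization combined they turned to 0.0032 for Lipc, -0.056 for Gpihbp1 and 0.072 for Alas1, and with only the high-fat arrays of the smaller scan, an alternative chosen after seeing the data, to -0.035 for Pdk3. The probes of Ucp3 and Pdk3 were well above background only on arrays of the high-fat diet (4 of 8 for each), in the dimmest bin, whose median was 0.51. The cause was not tested for any of these turns. Of 32 named list genes not called, 17 were called in at least 1 alternative, 15 of them with array weights and 11 in an alternative other than array weights. With slide as a random block (correlation 0.451) the adjusted p of the 6 genes ran from 0.883 to 0.995.

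The labels do not say whether replicate numbers pair the samples. Deviations of same-numbered arrays from the mean of their diet had correlations of 0.0347 to 0.0654. Differently numbered arrays were not compared in this way, so these correlations cannot decide whether samples were paired. With the replicate block the members called higher and the members called lower numbered 0 and 0, and the log2 differences of Pdk4, Angptl4 and Fgf21 were -0.024, -0.18 and -0.81. Over the whole array, all features called higher and all features called lower numbered 703 and 112. They became 132 and 17 with a normexp background, 1038 and 1077 with normexp and quantile normalization, 798 and 294 with quantile normalization, 699 and 396 with no filter, 355 and 131 with probes above background on all 8 arrays, 84 and 0 with slide as a random block, 2194 and 1579 with array weights, 2519 and 383 with arrays of the chow scan day, 998 and 981 with the smaller scan, 830 and 310 with the value table, 4 and 0 with the replicate block, and 356 to 732 and 18 to 89 with single arrays left out. Low signal limits Ppargc1a, whose probe was above background on 0 arrays.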
